A study of Mus musculus with 12 samples.

Results

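The 125 genes described here are the small nucleolar RNAs (snoRNAs) and small Cajal body RNAs (scaRNAs) of the embryonic mouse spinal cord. They were chosen by 2 criteria: a symbol that starts with *Snora*, *Snord* or *Scarna* and a number, and a mean TPM (transcripts of a gene per fixed total, scaled for length) of 0.5 or more over 12 RNA-seq libraries. The tables list 45777 genes, of which 141 carry such a symbol and 16736 reach that level. The selection holds 32 of 38 H/ACA box snoRNAs (*Snora*), 85 of 94 C/D box snoRNAs (*Snord*) and 8 of 9 scaRNAs (*Scarna*). Because the rule selected on the mean TPM, the levels themselves are given as a description.

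H/ACA snoRNAs guide the conversion of uridine to pseudouridine, and C/D snoRNAs guide 2′-O-methylation, mainly in ribosomal RNA. A few C/D RNAs take part in cutting the ribosomal RNA precursor, and scaRNAs guide the same 2 modifications on spliceosomal RNAs in the Cajal body of the nucleus. Most mammalian snoRNAs are cut out of the introns of host genes, many of which encode ribosomal proteins or are non-coding RNAs such as the *Snhg* genes.

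The libraries came from the ventral spinal cord at E12.5, with 3 libraries each from the brachial and the lumbar level of *Isl2* +/- embryos (Het) and of *Isl2* KO embryos, which carry a null allele on both chromosomes. *Isl2* encodes a LIM homeodomain transcription factor of motor neurons. All groups carried the *Hb9::GFP* motor neuron reporter, which guided the dissection of the tissue. The cells were not sorted, so motor neurons are mixed with other ventral cells, and fewer cells of a type and less RNA per cell cannot be told apart. The study used 3 animals of each genotype, and the labels do not tie a brachial to a lumbar library of the same animal. RNA of Y-linked genes was found in 2 of 3 brachial and 1 of 3 lumbar libraries of heterozygotes, so these are not the same 3 animals throughout, and in 2 of 3 libraries of each KO group, so the sexes are not balanced between groups.

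The aligned bases of a library, which coverage divided by FPKM gives, ranged from 4.485 to 6.638 Gb. TPM was divided by a size factor per library (0.893 to 1.247, highest in Brachial KO 2), and all values by library below are such rescaled TPM. *Isl2* was at 8.73, 8.33 and 9.72 in brachial heterozygotes against 6.04, 7.28 and 4.47 in KO, and at 10.3, 8.43 and 9.43 in lumbar heterozygotes against 7.33, 6.53 and 8.24 in KO. All KO libraries were below the heterozygotes of their level, with RNA of the gene still counted. The summed TPM of 4 caudal Hox genes was 205 to 323 at the lumbar and 0.031 to 0.314 at the brachial level, as the labels give it. The 10 motor neuron markers summed to 240 to 388 in the 12 libraries.

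The sequences that carry the results below are shown first, as GENCODE M21 gives the RNAs on GRCm38, 5′ to 3′, with T for U. The first set holds the 5 RNAs with the smallest p between spinal levels (*Snord49a*, *Snord2*, *Snord96a*, *Snord83b*, *Snora5c*) and those with the smallest p between genotypes at the brachial level (*Snora78*) and for the difference of genotype effects between levels (*Snord94*). Capitals mark the C box TGATGA near the 5′ end and the D box CTGA near the 3′ end of C/D RNAs, and the ACA near the 3′ end of H/ACA RNAs. *Snord2* has no TGATGA within its first 20 bases, so only its D box is marked.
Snord49a: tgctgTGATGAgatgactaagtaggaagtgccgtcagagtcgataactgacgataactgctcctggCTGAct
Snord2: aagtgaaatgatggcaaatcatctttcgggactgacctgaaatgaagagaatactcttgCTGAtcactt
Snord96a: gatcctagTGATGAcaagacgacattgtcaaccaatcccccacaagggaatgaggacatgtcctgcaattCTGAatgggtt
Snord83b: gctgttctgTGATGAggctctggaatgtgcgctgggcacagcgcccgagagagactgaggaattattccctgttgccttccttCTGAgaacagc
Snora5c: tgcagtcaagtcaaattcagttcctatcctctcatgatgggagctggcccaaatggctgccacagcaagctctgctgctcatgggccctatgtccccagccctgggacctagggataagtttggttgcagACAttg
Snora78: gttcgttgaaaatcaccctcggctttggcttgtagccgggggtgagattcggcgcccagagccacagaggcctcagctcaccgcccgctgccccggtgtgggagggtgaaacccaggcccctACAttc
Snord94: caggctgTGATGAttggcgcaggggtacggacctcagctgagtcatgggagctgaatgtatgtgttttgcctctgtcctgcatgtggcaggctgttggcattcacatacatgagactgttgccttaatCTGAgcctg

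*Snord49a* lies at chr11:62603450-62603521 on the plus strand, in an intron of *2410006H16Rik*. *Snord2* lies at chr16:23108953-23109021 (plus) in *Eif4a2*, *Snord96a* at chr11:48802032-48802112 (plus) in *Rack1* and *Snord83b* at chr15:80078498-80078591 (minus) in *Rpl3*. *Snora5c* lies at chr11:6620319-6620454 (minus) in *Tbrg4*, *Snora78* at chr17:24719676-24719803 (minus) in *Snhg9* and *Snord94* at chr6:71882557-71882693 (minus) in *Ptcd3*. Each of the 7 lies inside a host on the same strand and outside the exons of the basic annotation. The stretch counted for *Snora78* (157 bases) starts upstream of its annotated 5′ end, and *Snora5c* has a copy of 98.5 percent identity elsewhere.

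The boxes separate the classes. TGATGA within the first 20 bases was found in 69.4% of the 85 C/D RNAs, 0 of 32 H/ACA RNAs and 0.1% of 3649 other annotated small RNAs of 60 to 200 bases. CTGA within the last 15 bases was found in 92.9%, 6.2% and 4.4% of the same sets, and ACA within the last 8 bases in 9.4%, 93.8% and 12.3%. Of the 8 scaRNAs, 4 held TGATGA, 5 held CTGA and 3 held ACA, so both kinds of guide are among them. The windows were read on the strand of the RNA, and the 3 motifs do not overlap each other in the sequences shown.

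For many RNAs the tables measure only a stretch of the annotated RNA. All 125 overlapped a GENCODE RNA, 29 had identical coordinates, and for 28 the tables covered less than 80 percent of it. The stretch counted is 61 of 414 bases for *Scarna2* and 71 of 325 for *Scarna10*. Capitals in the next set mark the counted stretch of *Scarna9* (42 of 70 bases, chr9:15326264-15326333, minus), *Snord98* (28 of 65 bases, chr10:62765576-62765640, minus) and *Snora61* (62 of 130 bases, chr4:132310240-132310369, plus).
Scarna9: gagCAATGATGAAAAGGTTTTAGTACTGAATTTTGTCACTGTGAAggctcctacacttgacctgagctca
Snord98: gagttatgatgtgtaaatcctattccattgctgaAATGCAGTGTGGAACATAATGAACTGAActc
Snora61: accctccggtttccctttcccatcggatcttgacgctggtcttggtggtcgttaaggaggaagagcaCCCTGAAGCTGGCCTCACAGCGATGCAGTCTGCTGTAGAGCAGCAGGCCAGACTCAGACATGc

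Of the 125 RNAs, 29, of which 2 are also among those 28, had a copy of 95 percent identity or more elsewhere in the annotation, and their values depend on how reads were shared among copies. The pair *Snora73a* and *Snora73b*, which are known to act in ribosomal RNA maturation and share the host *Snhg3*, differ at 7 of 205 bases. *Snord116l2* and *Snord116l12*, from the imprinted repeat cluster in *Snhg14*, differ at 3 of 94. Capitals mark the bases that differ within each pair.
Snora73a: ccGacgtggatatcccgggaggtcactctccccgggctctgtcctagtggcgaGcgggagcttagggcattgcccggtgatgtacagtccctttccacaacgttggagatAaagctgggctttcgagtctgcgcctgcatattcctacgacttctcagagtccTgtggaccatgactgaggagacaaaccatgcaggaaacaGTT
Snora73b: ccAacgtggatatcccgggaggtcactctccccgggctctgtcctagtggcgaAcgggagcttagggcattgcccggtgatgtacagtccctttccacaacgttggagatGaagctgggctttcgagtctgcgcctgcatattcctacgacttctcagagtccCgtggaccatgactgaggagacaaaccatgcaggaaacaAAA
Snord116l2: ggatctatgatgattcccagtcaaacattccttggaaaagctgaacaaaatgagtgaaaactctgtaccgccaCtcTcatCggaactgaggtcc
Snord116l12: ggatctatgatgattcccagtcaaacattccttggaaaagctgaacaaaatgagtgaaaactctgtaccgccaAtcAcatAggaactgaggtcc

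A few RNAs held most of the signal. The mean deposited TPM, which is per length of the counted stretch, was 759 for *Scarna2*, 713 for *Scarna10*, 491 for *Scarna13*, 309 for *Snora73a*, 172 for *Snora73b*, 101 for *Scarna6* and 90.7 for *Snora74a*. These 7 made up 70.4% of the summed TPM of the 125 RNAs, and the 3 leading scaRNAs 52.3%. The first C/D RNAs in the order were *Snord64* at 73.4, *Snord104* at 57.6, *Snord96a* at 38.2, *Snord2* at 28.8 and *Snord17* at 26.9.

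The other leading members were *Snora78* at 42.0 and *Snora65* at 29.3 among H/ACA RNAs, and *Scarna9* at 32.5 among scaRNAs. The median was 10.2 for H/ACA, 6.03 for C/D and 67.0 for Cajal body RNAs. Below 10 TPM lay 78 of the 125, and 14 of them were below 1. The 3 just inside the lower limit were *Snord116l13* (0.525), *Snord116l7* (0.556) and *Snord116l3* (0.560), and the 3 just outside were *Scarna8* (0.473), *Snord116l9* (0.472) and *Snora19* (0.464).

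**Figure D1:**
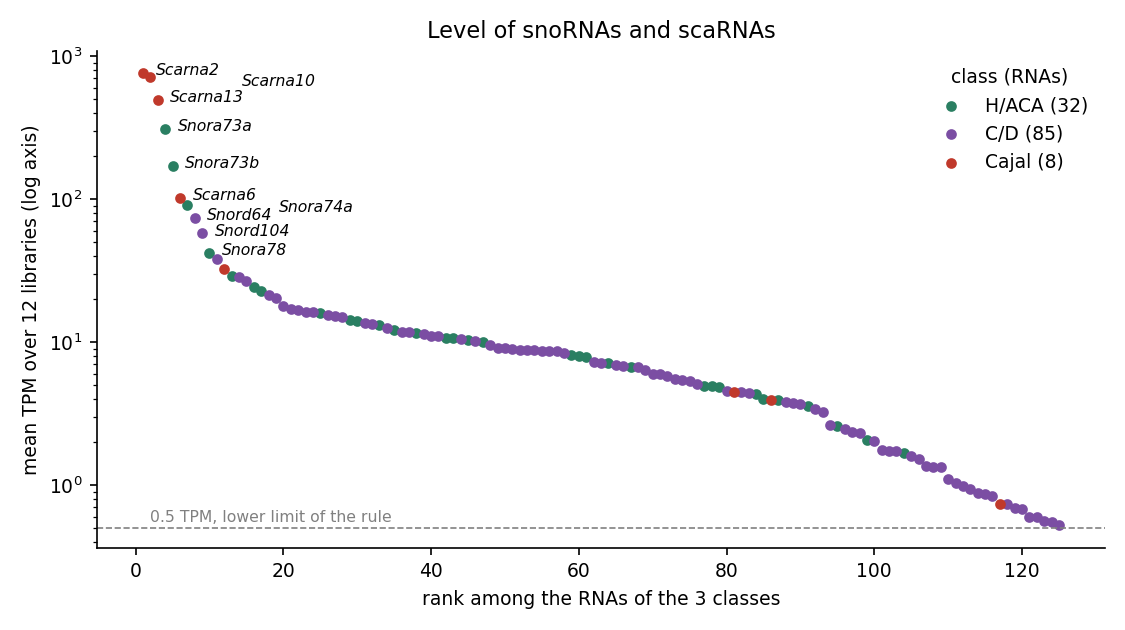
Mean deposited TPM over the 12 libraries (log axis) of the 125 RNAs by rank, coloured by class, with the 10 highest named. The highest, *Scarna2*, is at 759 TPM, and the dashed line marks the 0.5 TPM at which the selection ends.

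Neighbours in this order often did not differ beyond their spread between libraries. *Scarna10* ranged from 293 in Brachial KO 2 to 1025 in Lumbar KO 3, a range that holds every value of *Scarna2* (589 to 946). *Scarna13* (402 to 580) lay below every library of *Scarna2*. *Snora73a* ranged from 147 to 404 and *Snora73b* from 62.8 to 277.

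The spread between replicates set how small a difference could be seen. RNAs with a mean coverage of 100 or more had a median replicate SD of 0.215 on the log2 scale (11 RNAs), and those between 3 and 10 had 0.791 (20 RNAs). Other tested genes of the same coverage had 0.113 and 0.274. The 34 RNAs with a mean coverage under 10 are too uncertain for small differences. *Snord71* and *Scarna3b* were listed at 0 in 1 library and *Snord92* in 2.

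Length went with the highest levels only. Of the 10 RNAs annotated at 150 bases or more, 9 had a mean of 20 TPM or more, against 4 of 41 between 100 and 150 bases and 6 of 74 under 100 bases. The median was 137 TPM in the longest of these sets, 7.85 in the middle one and 6.2 in the shortest. Over all 125 RNAs, the Spearman correlation of annotated length and mean TPM was 0.13. Loss of short RNAs in library making was not measured, so the order of levels need not be that in the cell.

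Of the 125 RNAs, 121 lay inside one of 79 same-strand hosts, 82 of them in protein-coding genes and 39 in non-coding ones. *Scarna2*, *Snord118*, *Snord13* and *Snord89* lay in none. Mean TPM was below that of the host for 109 of the 121, and the median ratio was 3.01%. How fully RNAs this short enter total RNA libraries was not measured, so this is not a ratio of amounts in the cell. The RNAs far above their hosts were *Scarna13*, 41.4 times its host *Snhg10*, *Scarna10*, 29.7 times *Ncapd2*, *Snora73a*, 13.0 times *Snhg3*, *Snora74a*, 9.71 times *Snhg4*, *Snora73b*, 7.23 times *Snhg3*, and *Snora78*, 6.43 times *Snhg9*. Of the 125 RNAs, 7 lie wholly within annotated exons, *Scarna10* among them, and 2 partly, *Snora73a* among them. Reads of a host's unspliced RNA over a member cannot be told from reads of the member itself. Across the 121 RNAs, the Spearman correlation of member and host TPM was 0.19.

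The clearest difference was between spinal levels. In a limma fit over all 12 libraries with genotype as a term, 18 of the 125 RNAs were higher at the lumbar level (Benjamini-Hochberg adjusted p under 0.05), which is 14.4% against 8.88% of all 16736 genes tested. None was higher at the brachial level, against 9.65% of all genes, and 1 (0.8%) had an unadjusted p under 0.05 in that direction, against 16.0% of all genes. The 18 were 7 of 32 H/ACA, 9 of 85 C/D and 2 of 8 Cajal body RNAs. Irrespective of the threshold, 101 of the 125 log2 differences were above 0, with a median of 0.30, while the median over all genes tested was 0.01 and 52.1% of them were above 0.

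*Snord49a* differed with the smallest p. Its rescaled TPM was 10.9, 12.4 and 13.3 in brachial heterozygotes, 12.9, 11.1 and 13.3 in brachial KO, 16.2, 16.2 and 19.1 in lumbar heterozygotes and 16.7, 21.8 and 17.7 in lumbar KO. All 6 lumbar libraries were above all 6 brachial ones, with a log2 difference of 0.54 ± 0.09 (SE; limma, adjusted p = 0.0015).

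*Snord96a* was the only other RNA whose levels did not overlap, so 2 of 125 (1.6%) were apart in this direction, against 3.64% of all genes. It was at 39.1, 29.2 and 35.9 in brachial heterozygotes, 32.9, 25.9 and 26.2 in brachial KO, 40.8, 42.7 and 51.2 in lumbar heterozygotes and 42.1, 49.3 and 49.5 in lumbar KO. The log2 difference was 0.55 ± 0.10 (SE; limma, adjusted p = 0.0036).

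*Snord2* was at 19.7, 24.1 and 23.1 in brachial heterozygotes, 28.7, 24.1 and 25.7 in brachial KO, 29.9, 24.7 and 32.1 in lumbar heterozygotes and 38.8, 40.9 and 34.6 in lumbar KO. The 3 lumbar KO libraries were the highest, and Lumbar Het 2 lay within the brachial range. The log2 difference between levels was 0.46 ± 0.08 (SE; limma, adjusted p = 0.003).

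*Snord83b* was at 10.8, 7.91 and 7.43 in brachial heterozygotes, 5.17, 5.80 and 7.998 in brachial KO, 10.7, 13.3 and 15.2 in lumbar heterozygotes and 8.43, 13.9 and 10.1 in lumbar KO, a log2 difference of 0.67 ± 0.15 (SE; limma, adjusted p = 0.0094). *Snora5c* was at 5.84, 5.10 and 7.27 in brachial heterozygotes, 5.55, 5.65 and 4.05 in brachial KO, 8.10, 5.46 and 11.5 in lumbar heterozygotes and 11.99, 12.9 and 12.2 in lumbar KO, a log2 difference of 0.84 ± 0.20 (SE; limma, adjusted p = 0.012). The levels overlapped for both, through 3 lumbar libraries of *Snord83b* and 1 of *Snora5c*.

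The other 13 RNAs past the threshold differed by 0.40 to 1.495 on the log2 scale. The largest was *Snord110*, at 0.856 ± 0.42 TPM (SD, n = 6) in brachial and 2.74 ± 1.42 in lumbar libraries, with a mean coverage over the 12 libraries of only 5.50. *Snord49a*, *Snord2*, *Snord96a*, *Snord83b*, *Snora5c* and *Snord110* passed the threshold under each of the 22 alternative settings run. The count of 18 fell to 11 without Brachial KO 2, 11 without Lumbar Het 3 and 10 without Lumbar KO 3.

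**Figure D2:**
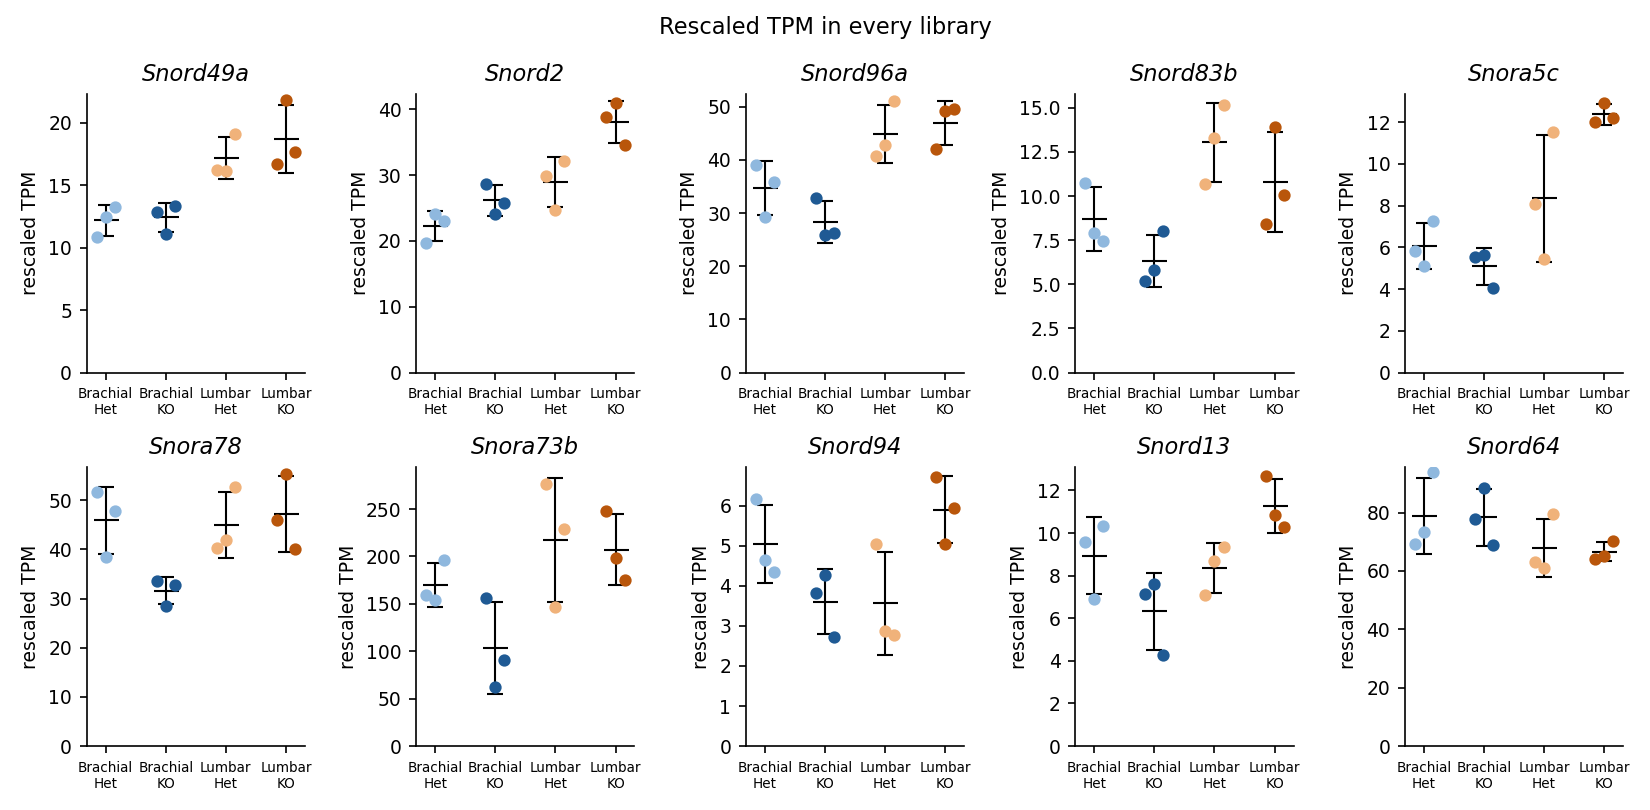
Rescaled TPM (y axes from 0) of 10 RNAs in each of the 12 libraries, by group, with the mean and SD of 3 libraries. The lumbar libraries of *Snord49a* and *Snord96a* lie above all brachial ones, while the mean of *Snord64* is 78.6 in brachial and 67.2 in lumbar libraries.

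The median log2 difference was 0.34 for H/ACA, 0.29 for C/D and 0.30 for Cajal body RNAs, and 29 of 32, 66 of 85 and 6 of 8 were above 0. Within heterozygotes alone the median over the 125 RNAs was 0.23, with 86 above 0, and within KO libraries alone it was 0.36, with 102 above 0. For H/ACA RNAs it was 0.24 within heterozygotes and 0.49 within KO, and for C/D RNAs 0.23 and 0.29. For Cajal body RNAs it was 0.03 within heterozygotes, with 4 of 8 above 0, and 0.45 within KO, with 6 of 8. The median deviation of the 125 RNAs from their 12-library means was -0.16 to -0.001 in the 6 brachial libraries and 0.02 to 0.30 in the 6 lumbar ones, so the 2 ranges did not overlap.

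Summed over a class, C/D RNAs were at 653 to 746 rescaled TPM in the brachial and 739 to 906 in the lumbar libraries, with 1 lumbar library inside the brachial range. H/ACA sums were 517 to 1037 and 881 to 1076. Cajal body sums were 1438 to 2665 and 1949 to 2516, and overlapped widely. With TPM as deposited the log2 ratio of lumbar to brachial sums went from 0.26 to 0.11 for C/D, from 0.36 to 0.24 for H/ACA and from 0.23 to 0.10 for Cajal body RNAs, and the lumbar C/D sums, at 703 to 839, lay inside the brachial range of 693 to 852.

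**Figure D3:**
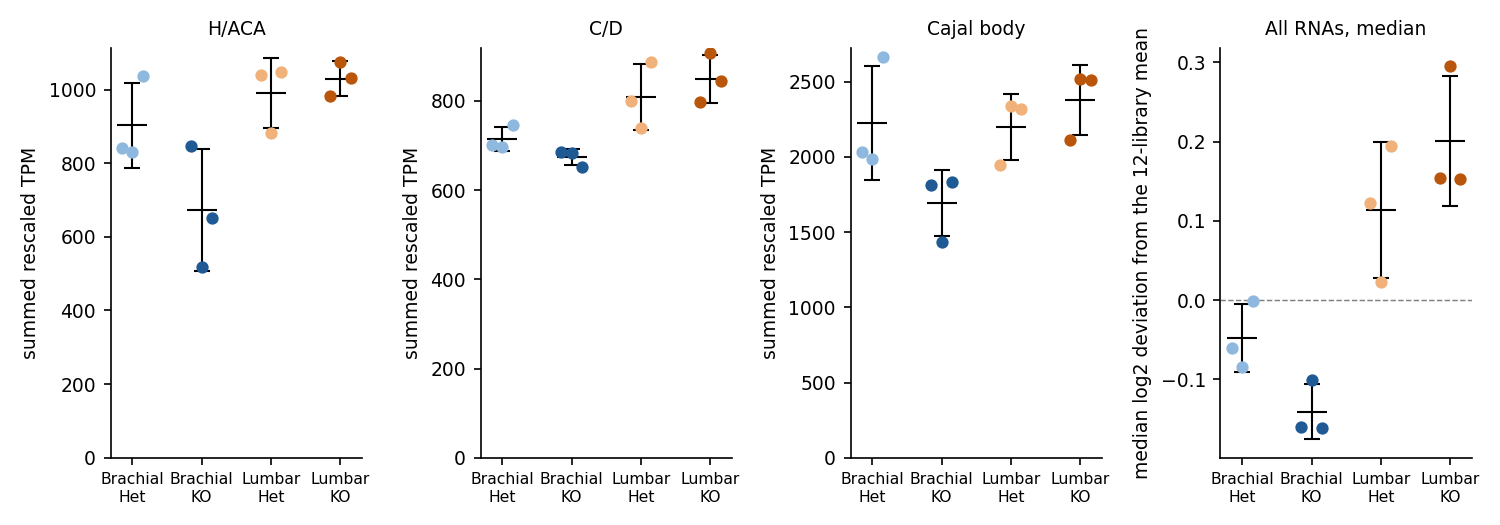
Summed rescaled TPM of each class in the 12 libraries (first 3 panels, y axes from 0) and the median log2 deviation of the 125 RNAs from their 12-library mean (last panel), by group, with mean and SD of 3 libraries. The 6 lumbar medians lie above 0 and the 6 brachial ones below it, and Brachial KO 2 has the lowest H/ACA sum, 517.

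Scaling bears on the direction. With TPM as deposited, the median of all genes moved to -0.13 and that of the 125 RNAs to 0.16, with 9 RNAs higher at the lumbar and 1 at the brachial level. With size factors taken from the 125 RNAs themselves the medians were -0.24 and 0.05, with 7 and 5. Relative to the median of all genes, the difference of the 125 RNAs was 0.29 in each of these 3 scalings. They differ by a single factor per library, which moves all genes nearly alike, so this value could hardly change between them. Over the 22 alternatives it was 0.22 to 0.31.

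Other genes moved between levels alongside. Of 21 other short structural RNAs tested, such as spliceosomal *Rnu* RNAs, 5 were higher at the lumbar level (limma, adjusted p under 0.05) and none at the brachial, with a median of 0.55. *Rnu3a*, a copy of the U3 C/D snoRNA that is not named *Snord*, was at 26.7 and 50.3 TPM (means of 6 libraries; log2 difference 0.93, limma adjusted p = 0.0097). The 970 other tested genes of 300 bases or less had a median of 0.07, with 51 higher at the lumbar and 11 at the brachial level.

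Markers of other cell types also differed. The 4 endothelial markers summed to 30.1 to 35.1 TPM in brachial and 25.1 to 29.5 in lumbar libraries, and the 4 microglial markers to 11.5 to 22.3 and 6.15 to 11.7. The share of all TPM in 5 structural RNAs (*Rn7sk*, *Rn7s1*, *Rn7s2*, *Rmrp*, *Rpph1*) was 23.7% to 35.3% in brachial and 30.9% to 38.2% in lumbar libraries. Their part in the level difference was not tested.

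**Figure D4:**
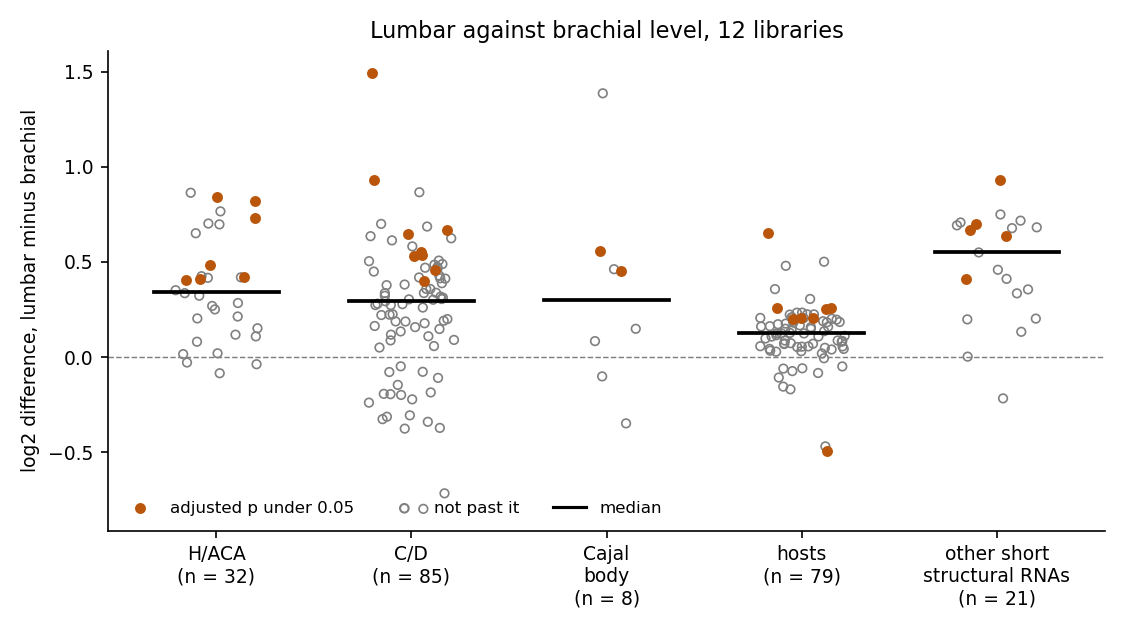
Log2 difference between the lumbar and the brachial level (12 libraries) for each RNA of the 3 classes, their 79 hosts and 21 other short structural RNAs. Filled points passed an adjusted p of 0.05, open points did not, and bars are medians, which are above 0 in all 5 sets.

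In 88 of the 121 pairs the level difference of the host was nearer to 0 than that of the RNA inside it, and in 33 it was not, *Snord64* with *Snhg14*, *Scarna10* with *Ncapd2* and *Snora78* with *Snhg9* among them. A noisier estimate tends to lie farther from 0, and the RNAs varied more between replicates than other genes of the same coverage. The count therefore does not show that the RNAs changed more than their hosts. The median log2 difference over the 79 hosts was 0.13, with 68 above 0, 7 higher at the lumbar and 1 at the brachial level (limma, adjusted p under 0.05). For the hosts of the 5 leading RNAs it was 0.05 for *2410006H16Rik*, -0.11 for *Eif4a2*, 0.21 for *Rack1*, 0.09 for *Rpl3* and 0.09 for *Tbrg4*, and the adjusted p of each, 0.11 or more, did not pass. Over the 121 pairs, the Spearman correlation of member and host differences was 0.40, across pairs that share libraries and in part a host.

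RNAs in protein-coding hosts had a median of 0.36 (73 of 82 above 0, 15 past the threshold) and those in non-coding hosts 0.20 (25 of 39 above 0, 3 past it). The 1 host that was higher at the brachial level was *Snhg14*, the non-coding RNA of the imprinted Prader-Willi region. It was at 54.1 ± 9.47 TPM (SD, n = 6) in brachial and 38.1 ± 3.15 in lumbar libraries, a log2 difference of -0.49 ± 0.10 (SE; limma, adjusted p = 0.0056). Of the 14 *Snord116* copies inside it, 11 had a difference below 0, with a median of -0.19, and none passed the test. *Snord64*, also inside it, had a log2 difference of -0.22 that did not pass the test (limma, adjusted p = 0.11).

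Of the RNAs known to act in cutting or acetylating ribosomal RNA, *Snord22* (U22), in *Snhg1*, passed the test between levels, at 18.5 ± 2.51 TPM in brachial and 24.5 ± 4.30 in lumbar libraries (SD, n = 6; log2 difference 0.40, limma adjusted p = 0.045), a call lost in 16 of the 22 alternatives, and the others did not. *Snord118* (U8), needed for the large subunit RNAs, was at 6.47 ± 2.48 TPM in brachial and 11.7 ± 4.38 in lumbar libraries (SD, n = 6; log2 difference 0.87, limma adjusted p = 0.076). *Snord13* (U13), a guide of acetylation, was at 7.63 ± 2.15 and 9.82 ± 1.92 (0.39, adjusted p = 0.2). The U14 RNAs *Snord14c*, *Snord14d* and *Snord14e*, from introns of *Hspa8*, had differences of 0.27, 0.15 and 0.31 (adjusted p = 0.084, 0.42 and 0.057), and *Snord14a*, from *Rps13*, had -0.08 (adjusted p = 0.84).

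The 4 C/D RNAs in introns of *Rpl13a*, a ribosomal protein gene whose snoRNAs have been studied in metabolic stress, were all above 0 between levels. The log2 difference was 0.20 for *Snord32a*, 0.30 for *Snord33* and 0.34 for *Snord34*, none past the test, and 0.53 ± 0.14 (SE) for *Snord35a*, which passed it (limma, adjusted p = 0.02). Among scaRNAs, *Scarna6* (0.56, adjusted p = 0.033) and *Scarna9* (0.46, adjusted p = 0.046) passed, calls lost in 8 and 16 of the 22 alternatives, while *Scarna2* (0.08), *Scarna13* (0.15), *Scarna10* (0.46), *Scarna3a* (-0.10), *Scarna17* (-0.35) and *Scarna3b* (1.39, at a mean TPM of only 0.744 and listed at 0 in 1 library) did not.

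The comparison of *Isl2* KO with heterozygotes asked which genes differ without the transcription factor. The threshold of the study, applied here to the limma fit, was a change of more than 0.5 on the log2 scale with p under 0.05 before adjustment. At the brachial level 6 of the 125 RNAs (4.8%) were lower in KO by this threshold, against 0.908% of all genes. None was higher, against 2.12% of all genes. Of the 970 other tested genes of 300 bases or less, 32 were lower and 71 higher. Of the 6, 5 were H/ACA RNAs: *Snora78*, *Snora73b*, *Snora61*, *Snora68* and *Snora21*. The other was *Snord116l12*. None of the 6 calls held in all of the 18 alternatives run. No RNA passed after adjustment over all genes (limma, adjusted p = 0.36 for each of the 6), and 10 of the 125 (8.0%) had an unadjusted p under 0.05, against 13.8% of all genes.

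*Snora78*, the first of them, was at 51.7, 38.4 and 47.7 in heterozygotes against 33.7, 28.4 and 32.8 in KO. Every KO library was below every heterozygote, and the log2 fold change was -0.53 ± 0.12 (SE). Its host *Snhg9* had a log2 fold change of -0.59 ± 0.23 (SE; limma, adjusted p = 0.36).

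*Snora73b* was at 160, 154 and 196 in heterozygotes against 157, 62.8 and 90.8 in KO, so that Brachial KO 1 lay among the heterozygotes. Its fold change was -0.81 ± 0.30 (SE, log2), and that of its near-identical copy *Snora73a*, which did not pass, -0.49 ± 0.27. *Snora61* was at 18.2, 18.6 and 18.3 against 14.5, 13.9 and 6.68, with a log2 fold change of -0.73 ± 0.27 (SE) and no overlap.

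*Snora68* was at 12.7, 14.6 and 7.98 in heterozygotes against 10.7, 5.62 and 4.46 in KO (log2 fold change -0.81 ± 0.35, SE). *Snora21*, in *Rpl23* and with a copy of 97.8 percent identity, was at 6.72, 5.98 and 4.92 against 4.13, 5.14 and 2.58 (-0.60 ± 0.26). Both overlapped between genotypes. *Snord116l12* was at 2.25, 1.52 and 1.44 against 0.567, 0.974 and 1.11 (-0.92 ± 0.31), without overlap but at a mean coverage of 3.96.

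Counting all RNAs whose KO libraries lay wholly below the heterozygotes gave 5 (4.0%), against 10.4% of all genes, and wholly above gave 1, against 9.71%. The median log2 fold change of the 125 RNAs was -0.12 with 80 below 0, against -0.01 over all genes. It was -0.26 for H/ACA (25 of 32 below 0), -0.09 for C/D and -0.29 for Cajal body RNAs. Among the 47 RNAs of mean TPM 10 or more, 37 were below 0.

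Other measures moved with this comparison. The 209 ribosomal protein genes tested had a median of -0.27 with 191 below 0, and the 79 hosts -0.19 with 58 below 0. The 21 other short structural RNAs had a median of -0.51, with 1 lower and none higher by the threshold. Brachial KO 2 had the highest size factor (1.247), the lowest share of TPM in the 5 structural RNAs (23.7%) and the lowest H/ACA sum (517), and Brachial KO 3 the fewest aligned bases (4.485 Gb). The 8 erythroid markers summed to 2500 to 4210 TPM in brachial heterozygotes and 3480 to 7100 in KO, and the 5 sensory neuron markers, *Isl1* among them, to 71.4 to 76.4 and 58.2 to 69.8. The latter difference lay mainly in *Isl1*, also a motor neuron marker (means of 60.1 and 49.7). *Pou4f1* was at 13.25 and 13.08, and *Prdm12* was higher in KO (0.565 and 1.34). Their part in the result was not tested.

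Without Brachial KO 2, 7 RNAs were lower and 1 was higher. The lower count was 1 without Brachial Het 1 and 10 without Brachial KO 1. Without Brachial Het 3 it was 3, out of 6 calls in either direction. Without Brachial Het 2 and without Brachial KO 3 there were 12 calls each, of which 3 and 2 were among the 6 of the main fit. With TPM as deposited 1 was lower and 3 were higher, the median over all genes being 0.16 and that of the 125 RNAs 0.04. Relative to all genes, the median was -0.11 in the main scaling and -0.12 in that one, a value that a factor per library can hardly change.

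In lumbar libraries 3 of the 125 RNAs (2.4%) were lower in KO, against 0.807% of all genes, and 4 (3.2%) were higher, against 0.968%. Of the 970 other tested genes of 300 bases or less, 34 were lower and 65 higher, so short genes in general passed this threshold often. All 7 except *Snora5c* were C/D RNAs. None passed after adjustment (limma, adjusted p = 0.999 for each), and 12 of the 125 (9.6%) had an unadjusted p under 0.05, against 4.83% of all genes. The median log2 fold change was 0.04 with 76 (60.8%) above 0, while over all genes it was -0.01 with 47.3% above 0. Beside this, the 10 motor neuron markers, *Isl2* among them, had a median of -0.29 (sums of 290 to 388 in heterozygotes and 240 to 358 in KO), and the 8 erythroid markers one of 0.39 (2460 to 3930 and 3210 to 5130). Their part in the result was not tested.

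The lower ones were *Snord87*, *Snord49b* and *Snord73b*. *Snord87*, in *Snhg6*, was at 6.22, 6.46 and 7.84 in heterozygotes against 3.67, 5.68 and 2.39 in KO (log2 fold change -0.87 ± 0.28, SE). *Snord49b*, which shares a host with *Snord49a*, was at 12.1, 12.8 and 16.1 against 7.76, 11.6 and 9.63 (-0.51 ± 0.17). *Snord73b*, in *Rps3a1*, was at 3.87, 7.24 and 7.07 against 3.27, 4.02 and 3.17 (-0.74 ± 0.25). The genotypes were apart for the first 2 and overlapped for *Snord73b*.

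The higher ones were *Snord53*, *Snord43*, *Snord94* and *Snora5c*, and none of them overlapped between genotypes. *Snord53*, in *Wdr43*, was at 6.54, 5.53 and 5.20 in heterozygotes against 6.551, 11 and 10.69 in KO (log2 fold change 0.67 ± 0.21, SE). *Snord43*, in *Rpl3*, was at 9.32, 9.49 and 6.41 against 13.4, 16.9 and 10.4 (0.67 ± 0.21). *Snord94*, in *Ptcd3*, was at 5.05, 2.87 and 2.77 against 6.73, 5.05 and 5.93 (0.76 ± 0.24), the closest pair being 5.048 and 5.050.

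The fourth, *Snora5c*, had a fold change of 0.62 ± 0.24 (SE, log2) from the values given above. Wholly below the heterozygotes lay 4 RNAs (3.2%), against 5.5% of all genes, and wholly above lay 8 (6.4%), against 4.4%. Of the 7 calls, that of *Snord53* alone held in all of the 18 alternatives run. Leaving out 1 library at a time gave 1 to 8 lower and 3 to 8 higher RNAs. The count of lower ones was 8 without Lumbar KO 2, 1 without Lumbar KO 1 and 1 without Lumbar Het 3, and the count of higher ones was 8 without Lumbar Het 1 or Lumbar Het 3.

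The difference of the KO effects, tested in all 12 libraries, had an unadjusted p under 0.05 for 12 of the 125 RNAs (9.6%), against 4.42% of all genes, and none passed after adjustment (limma, smallest adjusted p = 0.81). In 11 of the 12 the KO effect was more positive at the lumbar level. So it was for 83 of the 125 RNAs (median difference 0.17), and for 49.5% of all genes. The same lean was seen in 187 of 209 ribosomal protein genes (0.26) and 62 of 79 hosts (0.16).

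The 5 of smallest p were *Snord94*, *Snord13*, *Snora61*, *Snora78* and *Scarna13*. For *Snord94* the log2 fold change was -0.48 in brachial and 0.76 in lumbar KO, a difference of 1.24 ± 0.35 (SE). For *Snord13* it was -0.52 and 0.43, a difference of 0.94 ± 0.31. For *Snora61* the difference was 1.10, for *Snora78* 0.60 and for *Scarna13* 0.43. The sum of the sensory neuron list also differed at the lumbar level, from 76.5 to 82.3 in heterozygotes and from 59.0 to 76.4 in KO. This again lay mainly in *Isl1* (means of 65.0 and 52.6), while *Pou4f1* was at 13.09 and 13.65. The part of this in any result was not tested.

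The scaRNAs *Scarna2* and *Scarna13*, among the best covered, are given in full. *Scarna2* was at 803, 696 and 946 in brachial heterozygotes against 768, 647 and 589 in KO, and at 694, 823 and 684 in lumbar heterozygotes against 852, 831 and 795 in KO, with log2 fold changes of -0.28 and 0.18. *Scarna13* had 497, 474 and 580 against 440.0, 418 and 402 at the brachial level (-0.30; limma, adjusted p = 0.36) and 424, 501 and 563 against 515, 572 and 534 at the lumbar one (0.13). The brachial genotypes were apart for *Scarna13* and overlapped for *Scarna2*.

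**Figure D5:**
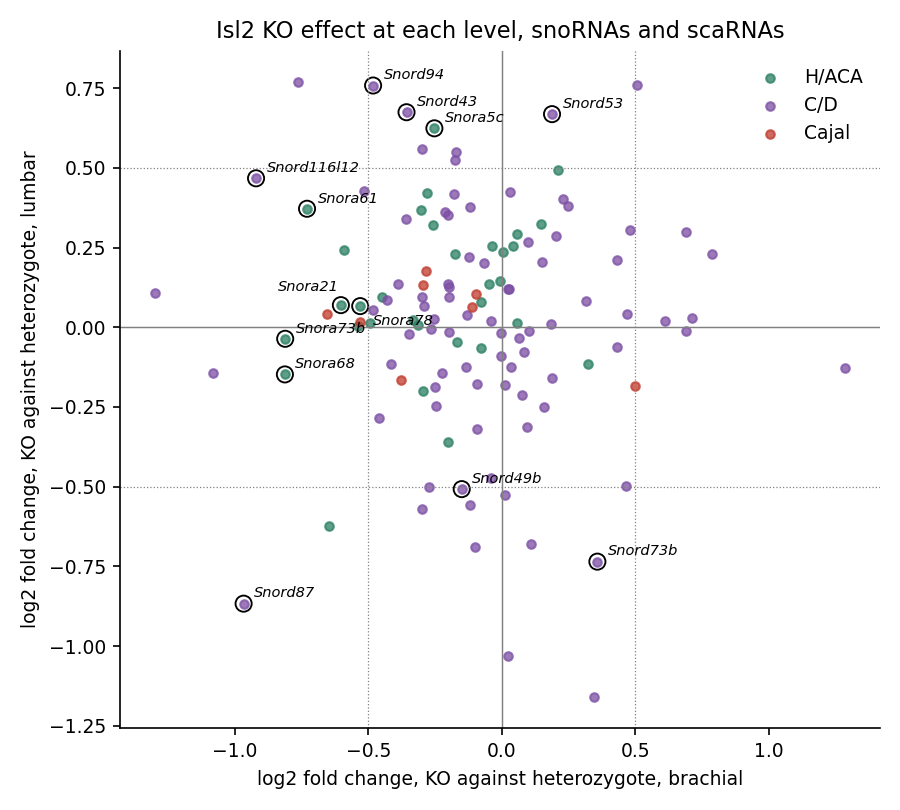
Log2 fold change of *Isl2* KO against heterozygotes at the brachial (x axis) and the lumbar level (y axis) for the 125 RNAs, 3 libraries a group. Circled and named are the 13 RNAs past the threshold at either level (dotted lines at a log2 fold change of 0.5), 6 of them lower at the brachial level.

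The mRNAs of the proteins that carry these RNAs were also measured. Of the 4 core proteins of C/D particles, the methyltransferase *Fbl* and its partners *Nop56*, *Nop58* and *Snu13*, and the 4 of H/ACA particles, the pseudouridine synthase *Dkc1* with *Nhp2*, *Nop10* and *Gar1*, none passed the KO threshold at either level. Between levels *Nop58* was higher at the lumbar level, from 70.6 TPM in brachial to 81.4 in lumbar libraries (log2 difference 0.21; limma, adjusted p = 0.04), and the other 7 did not pass. Of 11 assembly factors, 1 passed, the helicase *Ruvbl2* (0.19; adjusted p = 0.046), and none passed between genotypes. Of 9 genes of Cajal body and SMN complex proteins, which include *Coil*, *Wrap53* and *Smn1*, *Gemin6* was higher at the lumbar level (0.36; adjusted p = 0.035).

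Of 10 genes of RNA trimming and turnover, the exosome genes *Exosc3* (26.3 TPM in brachial and 35.2 in lumbar libraries; log2 difference 0.42, limma adjusted p = 0.0038) and *Dis3* (0.24; adjusted p = 0.015) were higher at the lumbar level. The exonuclease gene *Xrn1* passed the KO threshold at the brachial level (0.62; limma, adjusted p = 0.36). Of 25 *Snhg* and other, mostly non-coding, genes of snoRNA-rich loci tested, 11 of which host one of the 125 RNAs here, *Snhg5* (0.34; adjusted p = 0.018) and *Snhg1* (0.26; adjusted p = 0.049) were higher at the lumbar level and *Snhg14* and *Snrpn* (-0.50; adjusted p = 0.029) higher at the brachial level. *Snhg9* was lower in brachial KO and *Snhg18* and *Snurf* in lumbar KO at the unadjusted threshold.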

How the data were processed

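Total RNA of 12 ventral spinal cord samples was made into ribosomal RNA-depleted stranded libraries. Per the labels the authors used FastQC 0.11.7, Trimmomatic 0.38, HISAT2 2.1.0, Bowtie2 2.3.4.1 and StringTie 2.1.3b on build mm10. Whether StringTie used strand is not given in the sources used here. In each library the authors scaled the deposited TPM to a fixed total. The deposited FPKM values of the authors were a constant multiple of TPM. The deposited coverage of the authors is the mean read depth over a gene. No counts were used here, so no counting interval is given, and the count test of the study was replaced by limma.

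Symbols came from RefSeq GRCm38.p6 (45679 of 45777 identifiers named, all 125 RNAs with the same coordinates). RNA sequences, boxes and exons came from GENCODE M21. A host is the same-strand gene of more than 300 bases that spans the RNA, with the highest TPM where there are several. After division by a size factor per library (median of ratios over genes), log2(TPM + 0.1) was tested with limma 3.58.1 (R 4.3.3, trended prior) over the 16736 genes of mean TPM 0.5 or more, with Benjamini-Hochberg adjustment over all of them. Fold changes are on this scale and understate changes of low genes. KO was compared at each level in 6 libraries at the threshold of the study, a log2 fold change beyond 0.5 and unadjusted p under 0.05. Levels were compared in 12 libraries at an adjusted p under 0.05. Summed values carry no p. P-values measure the spread between these libraries, and where both levels of an animal were used they are not independent. The fit was checked on simulated data.

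The RNAs and gene lists were chosen with earlier results of these data known. Named were the 5 highest RNAs of each class, those past the KO threshold (at most 5 per level, direction and class, by p), the 5 of smallest p in each direction between levels and for the difference of KO effects, RNAs with known special roles, those beside the 0.5 TPM limit, their hosts and the listed protein genes. *Snord110*, *Snord22* and *Scarna3b* were named after their values were seen, as were RNAs given for their zeros or overlap.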

Additional observations from a re-analysis of the deposited data

How the results depend on the processing

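Results were recomputed with another pseudocount (0.01 or 1), filter, normalization or variance model, from coverage, with a replicate block, and without each library. For the level and difference fits the filter of all libraries was already the main one, so that alternative gave nothing new. Leaving out 1 library gave 1 to 10 lower and 0 to 3 higher RNAs in brachial KO, 1 to 8 and 3 to 8 in lumbar KO, 10 to 21 for the difference of KO effects, and 10 to 23 higher at the lumbar level, with 0 in the other direction. The difference count was 21 without Brachial KO 1. No named call changed direction. Brachial lower counts were 2 with no filter, 1 with TPM as deposited, 3 with size factors from the RNAs and 2 without a trend, and higher counts were 3, 2, 1 and 1 with TPM as deposited, size factors from the RNAs, coverage and no trend. With no filter 1 RNA was lower at the lumbar level. With TPM as deposited 7 RNAs had p under 0.05 for the difference. Between levels, 11 were higher at the lumbar level with no filter, 9 with TPM as deposited and 7 with size factors from the RNAs, and 1 and 5 were higher in brachial libraries in the last 2. The log2 ratio of the C/D sum, -0.08 in brachial KO and 0.26 between levels, became 0.10 and 0.11 with TPM as deposited. Leaving out 1 library moved the H/ACA ratio in brachial KO to between -0.63 and -0.27.

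Correlations of the deviations of same-numbered libraries were -0.22 to 0.34, the highest for brachial and lumbar heterozygotes of replicate 3. Differently numbered libraries were not compared, so these values do not settle whether any of them pair. With a replicate block, 9 RNAs were lower and 2 higher in brachial KO, 3 and 5 in lumbar KO, and between levels 15 were higher in lumbar and 1 in brachial libraries. The causes of these changes were not tested. Low coverage limits what can be seen for 34 of the 125 RNAs.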
